A study of Mus musculus with 51 samples.

Results

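The 8 arrays described here are the mammary glands (MG) of BALB/c mice after the high dose regimen (HD), 4 taken at 4 hr and 4 at 1 month after the last exposure. They were chosen by their titles, out of 51 arrays in all, and every probe set of the array was used. The mice were virgin females aged 8 weeks when they entered the regimen of 4 weekly X-ray fractions of 1.8 Gy. The BALB/c sham mice went through the same 4 weeks without dose, with 3 arrays at 4 hr and 3 at 1 month. The 4th MG pair was used with its lymph nodes removed, 1 array per mouse, and estrous stage was not controlled. C57BL/6 mice of the same sex and age that had the same HD regimen gave 4 arrays at each time. The remaining arrays were of LD (4 weekly fractions of 7.5 cGy) and sham MG and of blood. The comparison asks which of the transcript changes seen at 4 hr were gone 1 month later and which were still there.

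Radiation breaks DNA, and the broken ends activate the kinases that stabilise the transcription factor p53. Activated p53 switches on genes that halt the cell cycle, repair the damage, start apoptosis or feed back on p53 itself, and its protein returns to a low level once the damage is mended. The MG is a branched tree of luminal and myoepithelial cells set in a pad of adipocytes, fibroblasts, vessels, macrophages and lymphocytes. A bulk MG array reads both the state of the cells and their proportions.

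A few arrays carried transcripts of neighbouring tissue. HD 4 hr replicate 1 held skeletal muscle RNA: the mean of 29 muscle genes stood 5.62 log2 units above the median BALB/c array, against −0.10 to 0.01 in the other 3 HD arrays of that time. HD 1 month replicate 1 held lymphoid RNA, with the mean of 20 B cell genes at 2.68, against −0.10 to 0.02 in the other 3. HD 1 month replicate 3 had the muscle list at 2.09, and sham 4 hr replicate 1 had it at 1.55. On the array plate, the sham arrays lay in columns 1 to 5, HD 4 hr in columns 6 to 8 and HD 1 month in columns 9 to 12, so dose, time and plate column cannot be told apart within these groups. The luminal keratin Krt8 was well above the dim end of the scale, between 8.35 and 12.05 on the HD and sham arrays.

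**Figure D1:**
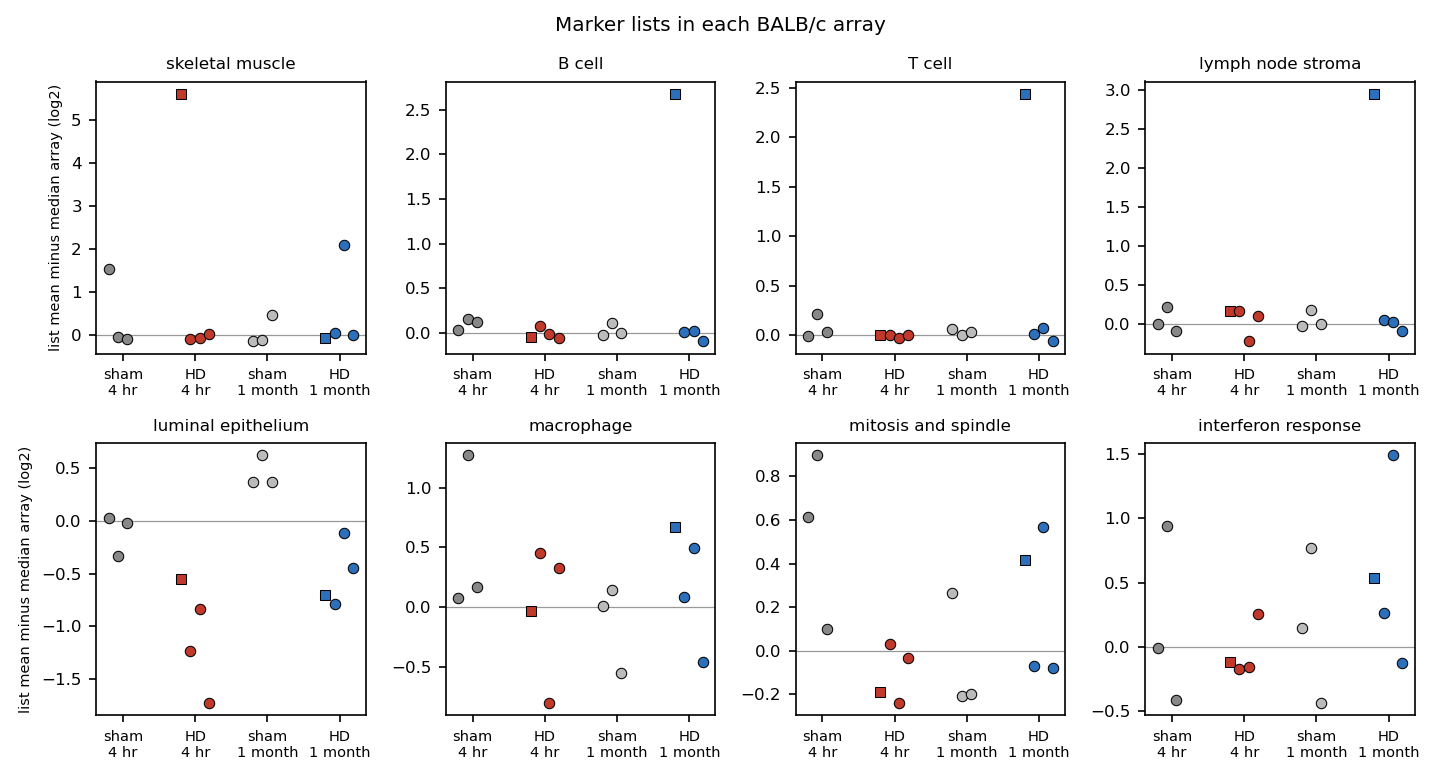
Mean log2 value of marker lists of cell types on each BALB/c array, relative to the median array, by group (sham and HD at 4 hr and 1 month). Points are arrays, and squares mark HD 4 hr replicate 1, the highest for skeletal muscle at 5.62, and HD 1 month replicate 1, the highest for the lymphoid lists with B cell genes at 2.68.

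Between 4 hr and 1 month after HD, 355 of 11807 genes changed, or 3.01%, with 190 higher (1.61%) and 165 lower (1.4%) at 1 month. Those counts are at an adjusted p under 0.05 in limma, with a gene counted by any of its probe sets, and a gene that passed is termed called. Normalizing the arrays to equal quantiles again moved the split to 124 higher and 203 lower. Of all probe sets, 9.49% had no overlap between the HD arrays of the 2 times. No gene passed the same test between sham 1 month and sham 4 hr, while 1056 had an unadjusted p under 0.05. The count for HD was 179 without the muscle array and the lymphoid array, and 146 of those were among the 355, which is 41.1% of the longer list and 81.6% of the shorter one. It ranged from 123 without HD 1 month replicate 1 to 726 without HD 1 month replicate 4. It was also 229 without HD 1 month replicate 2, 142 without HD 1 month replicate 3, and 138 and 130 without HD 4 hr replicates 2 and 3. With plate column as a covariate it was 66. A total of 131 genes were called with and without the 2 arrays and had no overlap between the 4 hr and the 1 month arrays, 71 of them higher and 60 lower at 1 month, and the largest changes named below are theirs.

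The largest falls between 4 hr and 1 month were in the p53 targets. Of 25 measured genes of p53-dependent arrest and feedback, 10 fell and none rose, where 139 of all 11807 genes fell (1.18%) when each gene was taken at its brightest probe set. Against sham, 12 of the 25 were higher at 4 hr, where 2.79% of all genes were, and none was called at 1 month. Their median difference from sham was 0.63 log2 units at 4 hr and 0.14 at 1 month, and the median of all genes was 0.00 and 0.02. The list mean of each array was 0.51 to 0.66 at 4 hr after HD, −0.12 to 0.04 at 1 month after HD and −0.19 to 0.00 in the sham arrays. The 2 HD times therefore did not overlap.

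Cdkn1a, the cyclin-dependent kinase inhibitor p21 that stops the cell cycle, had the largest fall. Its log2 values were 10.44, 10.73, 10.47 and 10.63 at 4 hr after HD and 7.96, 7.92, 8.58 and 7.73 at 1 month. In sham MG they were 6.33, 7.75 and 7.55 at 4 hr and 6.61, 7.18 and 6.18 at 1 month. All 4 HD arrays at 4 hr were above every other array, and at 1 month every HD array was still above the highest sham array of that time. The fall was 2.52 log2 units, where 1 unit is a 2-fold change, and it was called under each of the 18 alternatives run. The difference from sham was 3.36 at 4 hr (limma adjusted p = 6.17e-06) and 1.39 at 1 month (95% interval 0.75 to 2.03, limma adjusted p = 0.0943). Its HD change over time minus that of sham was −1.97 (95% interval −2.88 to −1.06, limma adjusted p = 0.21) and was not called.

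Slc19a2, a thiamine transporter and known p53 target, lay closer to sham at 1 month. At 4 hr after HD it read 8.64, 8.37, 8.54 and 8.52, against 6.62, 6.45 and 5.96 in sham. At 1 month HD arrays read 6.35, 6.63, 6.81 and 6.64 and sham arrays 6.50, 6.48 and 6.24. The HD arrays at 4 hr stood apart from all others, and the groups overlapped at 1 month. Its HD change over time differed from that of sham by −1.98 log2 units (SE 0.20, limma adjusted p = 0.000132), and the difference from sham at 1 month was 0.20 (95% interval −0.10 to 0.49).

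That difference of time changes was the test of return: the change after HD minus the change in sham over the same month. It called 14 of 11807 genes (0.119%), all 14 lower, and 1387 genes had an unadjusted p under 0.05. All 14 had been called higher than sham at 4 hr and none was called at 1 month. Since the test of return and the 4 hr comparison share arrays, that match is a description. Without the muscle and lymphoid arrays it called 8 genes, 7 of them among the 14: Slc19a2, Dcxr, Trp53inp1, Ccng1, Mdm2, Pqlc3 and Polk. It called 8 without sham 1 month replicate 1, 7 without sham 1 month replicate 2, 9 without sham 4 hr replicate 2 and 2 with plate column as a covariate. Some settings also called higher genes: 12 were higher and 15 lower over all 43 MG arrays, 3 higher and 12 lower without HD 1 month replicate 1, and 144 higher and 77 lower at an unadjusted p under 0.01 with a fold minimum of 0.58.

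Among the negative regulators and cell cycle genes of the 14 were Mdm2, the ubiquitin ligase that degrades p53, and Ccng1, a cyclin that acts with a phosphatase on Mdm2. Mdm2 read 9.48, 9.47, 9.64 and 9.47 at 4 hr after HD and 8.53, 8.39, 8.60 and 8.51 at 1 month, with all sham arrays between 8.28 and 8.53. Its difference from sham went from 1.10 to 0.14 (95% interval −0.05 to 0.33). Ccng1 read 11.45, 11.22, 11.27 and 11.06 at 4 hr after HD and 10.08, 10.25, 10.14 and 9.95 at 1 month, with sham arrays from 9.73 to 10.04. In both genes all 4 HD arrays at 4 hr were above every sham array. At 1 month Mdm2 overlapped the sham arrays of that time, and all HD arrays of Ccng1 lay above them. The Ccng1 difference from sham was then 0.26 (SE 0.10), and 0.41 (SE 0.13) at another of its probe sets, neither of them called. Gtse1, which holds p53 back in the G2 phase, fell by 1.18, and Zmat3, an RNA-binding target of p53, fell by 1.03. Psrc1, a spindle protein, fell by 1.75 and was not called in the test of return. The long non-coding RNA Pvt1 fell by 1.01.

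Of the genes linked to apoptosis, 3 of 14 fell and none rose, where 1.18% of all genes fell. Aen, a nuclease that helps to degrade DNA in dying cells, read 8.74, 8.80, 8.79 and 8.83 at 4 hr after HD and 7.31, 7.03, 7.18 and 7.59 at 1 month, with no overlap. Its sham arrays lay between 6.58 and 7.43. Trp53inp1, a stress protein that promotes p53 activity, fell by 1.47 and differed from sham by 1.77 at 4 hr and 0.16 at 1 month. Fas, the death receptor, fell by 0.63 and went from 0.99 above sham to 0.21. Polk, a polymerase that copies past damaged bases, fell by 1.19, with 8.29, 8.12, 7.95 and 7.70 at 4 hr and 6.79, 6.91, 7.01 and 6.60 at 1 month. Among the other genes of the 14, Dcxr, a reductase of sugars and carbonyls, fell by 1.17, Pqlc3 by 0.87, Thyn1 by 0.79, Ei24 by 0.79 and Dglucy by 0.76. Sesn2, a stress protein that restrains mTOR signalling, fell by 1.12 and Phlda3, an inhibitor of Akt, by 0.96, without a call in the test of return.

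**Figure D2:**
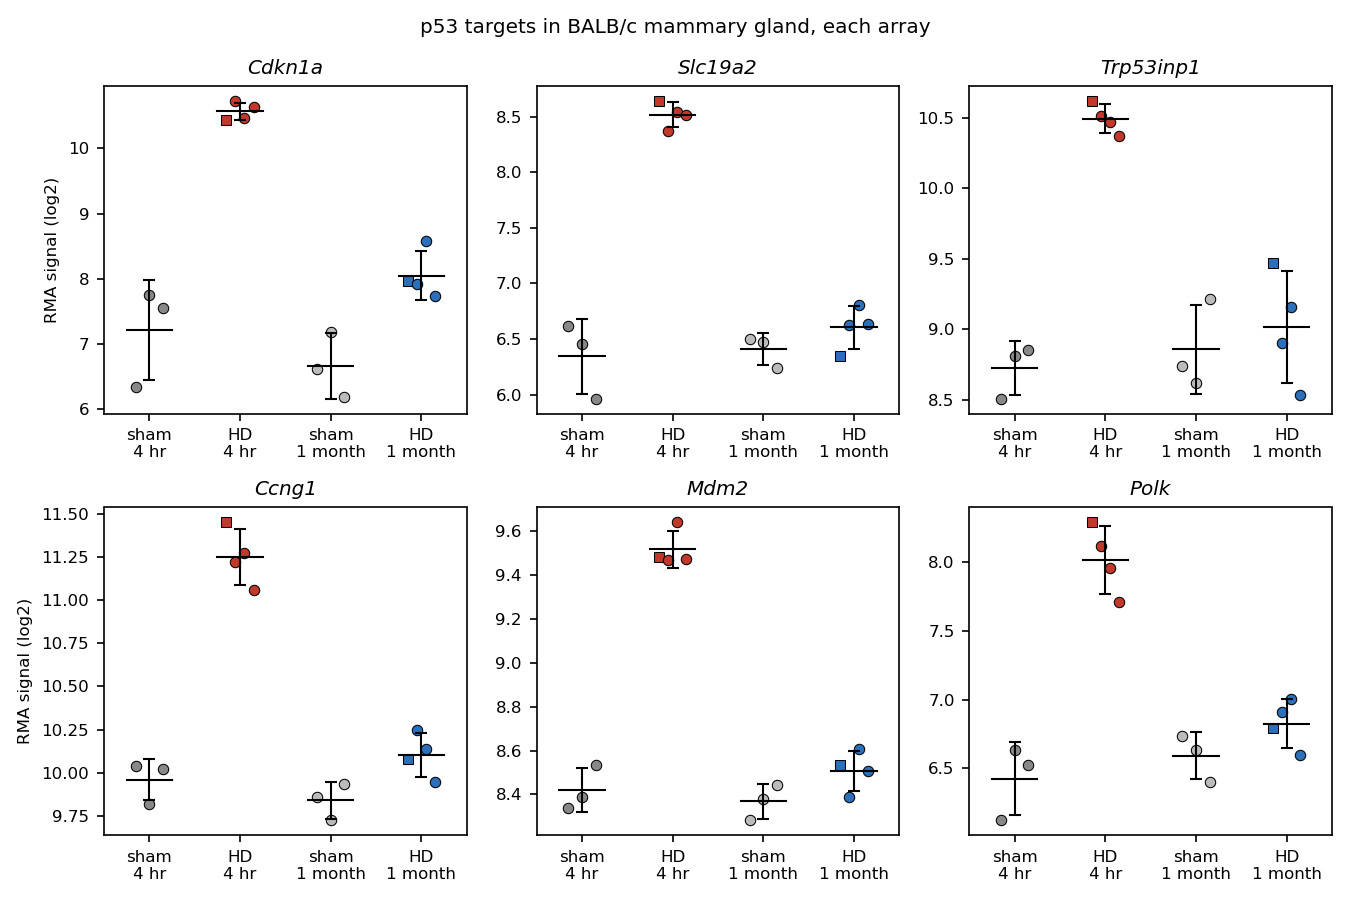
Log2 values of p53 target genes on each BALB/c array in sham and HD MG at 4 hr and 1 month. Points are arrays, bars are mean ± SD, squares mark HD 4 hr replicate 1 and HD 1 month replicate 1, and the 4 HD arrays at 4 hr lie above all other arrays of the gene, as for Cdkn1a at 10.44 to 10.73 against 6.18 to 8.58 elsewhere.

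The promoters of some of these genes hold the letters that p53 is known to bind. A p53 half-site, the 10-base motif of which a full p53 site holds 2, was searched on both strands in the 250 bases before each RefSeq start site (GRCm38.p6). It was found in 5 of the 11 test-of-return genes with a promoter entry (45.5%), in 11 of 49 genes with an entry among the 60 lower at 1 month (22.4%), in 6 of 59 among the 71 higher (10.2%), and in 7.53% of the 9430 genes of the array with an entry. The 5 genes and Cdkn1a are shown with the half-site in capitals and its flanks in lower case. A match of letters is not a measured binding site.
Cdkn1a chr17:29090876-29090967 (+ strand): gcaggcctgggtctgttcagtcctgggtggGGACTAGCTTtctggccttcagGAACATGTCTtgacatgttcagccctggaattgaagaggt
Mdm2 chr10:117710905-117710974 (− strand): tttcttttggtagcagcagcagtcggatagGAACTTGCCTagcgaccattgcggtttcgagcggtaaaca
Ccng1 chr11:40755432-40755501 (− strand): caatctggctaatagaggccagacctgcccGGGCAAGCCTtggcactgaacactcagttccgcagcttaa
Aen chr7:78895907-78895976 (+ strand): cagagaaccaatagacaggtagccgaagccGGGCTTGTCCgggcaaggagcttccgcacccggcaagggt
Polk chr13:96519379-96519437 (− strand): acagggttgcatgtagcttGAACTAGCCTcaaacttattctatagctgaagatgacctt
Ei24 chr9:36797335-36797374 (− strand): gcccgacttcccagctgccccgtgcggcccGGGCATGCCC
Cdkn1a held 2 half-sites, 73 and 51 bases before its start, and the others 1 each, between 10 bases before the start in Ei24 and 231 in Polk.

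The largest rises between 4 hr and 1 month were in the major histocompatibility complex (MHC) class II genes, which present peptides to CD4+ T cells from dendritic cells, macrophages and B cells. Of 19 measured genes of the class II and dendritic cell list, 7 rose and none fell, where 1.1% of all genes rose at their brightest probe set. The same 7 had been lower than sham at 4 hr, where 3.11% of all genes were, and none was called at 1 month. Among them H2-DMb2 had a limma adjusted p of 0.0485 at 4 hr and lost that call in 9 of 17 alternatives. With plate column as a covariate no gene of the array was called lower at 4 hr. In a bulk tissue, fewer cells of a type and less RNA per cell cannot be told apart.

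H2-Ab1, the beta chain of the I-A molecule, read 8.20, 7.32, 8.13 and 7.74 at 4 hr after HD and 10.85, 9.77, 9.46 and 9.25 at 1 month. Sham arrays read 9.81, 9.67 and 9.64 at 4 hr and 10.19, 9.64 and 9.81 at 1 month. All HD arrays at 4 hr lay below all sham arrays, and the HD arrays at 1 month spread over and around the sham values, with the lymphoid array highest. The rise was 1.99 log2 units (95% interval 1.42 to 2.55, limma adjusted p = 0.000902), and 1.77 without the muscle and lymphoid arrays. The difference from sham was −1.86 at 4 hr and −0.05 at 1 month (95% interval −0.66 to 0.57). That 1 month value includes the lymphoid array, and the HD values of 9.46 and 9.25 were below every sham array. Over the alternatives run, the 1 month difference ranged from −0.38 to 0.96.

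H2-Ea, the alpha chain of the I-E molecule, rose by 2.12, from 9.67, 8.71, 9.63 and 8.74 to 12.28, 11.31, 11.09 and 10.56. Sham H2-Ea lay between 10.91 and 11.66 at both times. H2-Eb1, its beta chain, rose by 1.96, H2-Aa, the alpha chain of I-A, by 1.94, and H2-DMb2, a subunit of the peptide-loading factor H2-DM, by 1.87. Cd74, the invariant chain that guides class II molecules through the cell, rose by 1.48, and H2-DMa, the other H2-DM subunit, by 1.16. Without the muscle and lymphoid arrays the rises were 1.96 for H2-Ea, 1.73 for H2-Eb1, 1.65 for H2-Aa, 1.47 for H2-DMb2 and 1.21 for Cd74, all still called. These genes and H2-Ab1 each kept the call in 17 of 18 alternatives. They lost it with the arrays of the HD groups alone (limma adjusted p from 0.0557 for H2-Ab1 to 0.12 for H2-DMb2), where 42 of all genes were called.

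The test of return did not call them: the HD change minus the sham change was 1.81 for H2-Ab1 (95% interval 0.94 to 2.68, limma adjusted p = 0.225), the smallest adjusted p among the 7. Over all 43 MG arrays, where the difference is the same and the spread is shared with C57BL/6, it called H2-Ea, H2-Ab1 and H2-Eb1 (limma adjusted p = 0.00727, 0.0261 and 0.0437), and with a replicate block it called H2-Ea. For H2-Ea, dim in C57BL/6, the C57BL/6 HD groups had SDs of 0.07 and 0.16 at 4 hr and 1 month. In BALB/c HD the SDs were 0.53 and 0.72, so the shared spread of H2-Ea understates that of BALB/c. The B cell list had a median rise of 0.67 with 0 of 20 genes called, and −0.04 without the muscle and lymphoid arrays. For 23 T cell genes the medians were 0.58 and 0.00, again with 0 called. Cd79a, part of the B cell receptor, read 4.27 to 4.49 in all HD arrays other than HD 1 month replicate 1, where it read 7.96. Apart from that array the B cell list mean was −0.06 to 0.07 at 4 hr and −0.10 to 0.02 at 1 month after HD. The macrophage list, with 0 of 43 called between the HD times, had a median of 0.30. Against sham it had 4 lower genes at 4 hr, where 3.11% of all genes were lower: Clec7a (−1.41), a receptor for fungal glucans, Cd14 (−0.87), a coreceptor for endotoxin, Lst1 (−1.12) and the fractalkine receptor Cx3cr1 (−0.60). At 1 month none was called and the median was 0.26.

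Promoters of class II genes carry an X box and a Y box, where the RFX and NF-Y complexes sit and recruit CIITA. The Y box letters CTGATTGG were found, on either strand, in H2-Aa and H2-Eb1 of the 4 called class II genes with a promoter entry and in 5.61% of the array's genes with one. They were also in 3 of the 11 test-of-return genes (Aen, Ccng1 and Dcxr, 27.3%). The X box core, searched by its consensus on both strands, was found in H2-Eb1 and in 0.785% of the array's genes. Capitals mark the boxes.
H2-Aa chr17:34287837-34287904 (− strand): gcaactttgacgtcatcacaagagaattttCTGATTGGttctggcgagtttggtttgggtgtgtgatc
H2-Eb1 chr17:34305745-34305842 (+ strand): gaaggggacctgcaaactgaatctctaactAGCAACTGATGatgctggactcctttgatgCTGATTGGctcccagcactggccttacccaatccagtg
In H2-Eb1 the Y box lay 62 bases and the X box core 92 bases before the start, and in H2-Aa the Y box lay 51 bases before it.

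**Figure D3:**
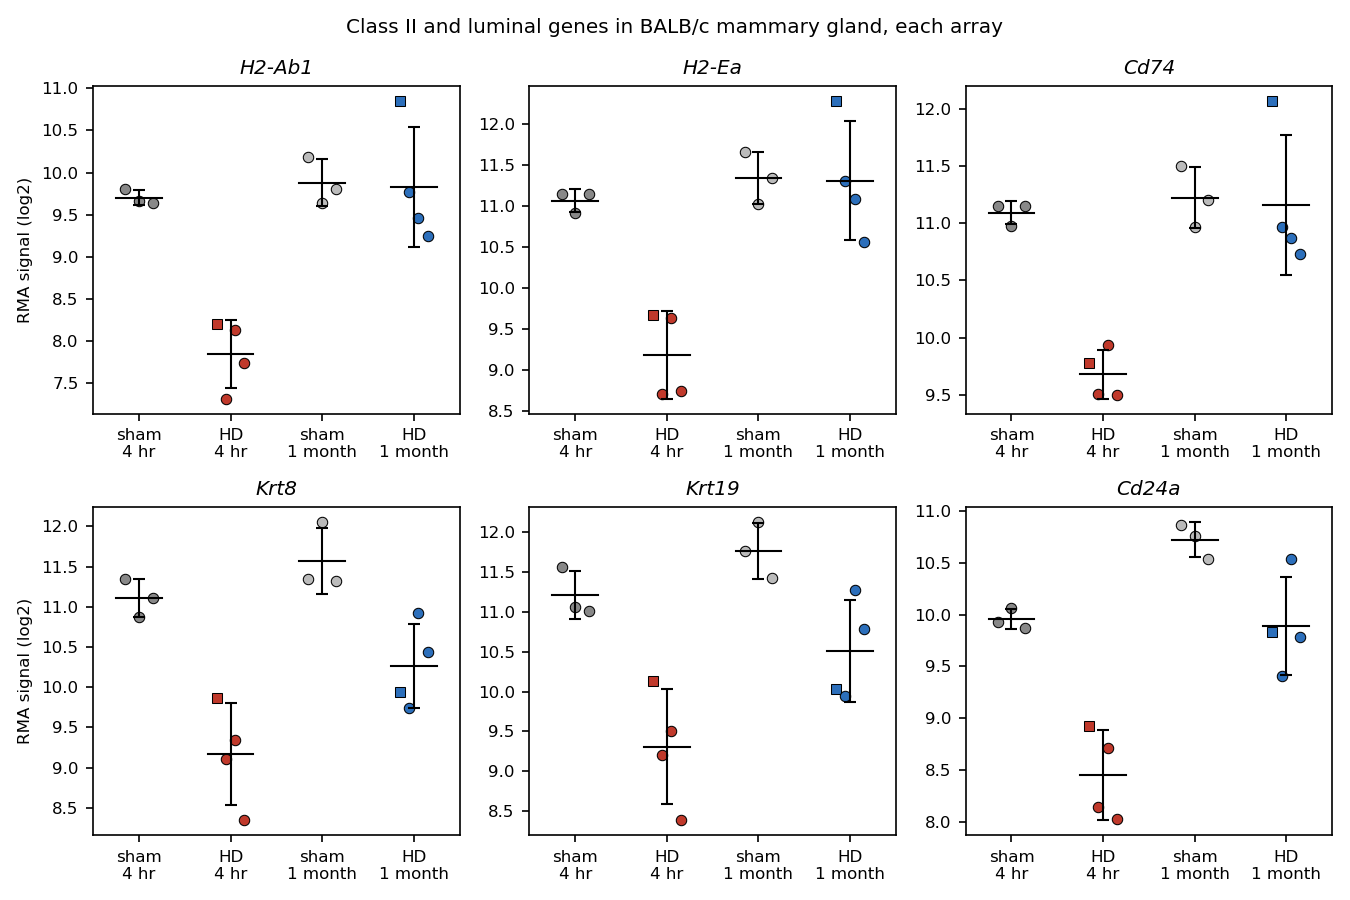
Log2 values of MHC class II genes and luminal epithelial genes on each BALB/c array, in sham and HD MG at 4 hr and 1 month. Points are arrays, bars are mean ± SD and squares mark HD 4 hr replicate 1 and HD 1 month replicate 1. At 1 month H2-Ab1 spreads over and around the sham values (9.25 to 10.85 against 9.64 to 10.19), with the lymphoid array highest. Krt8 is still below sham (9.75 to 10.92 against 11.32 to 12.05).

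Many luminal epithelial genes were lower than sham at 4 hr, and nearly all of them still read below sham at 1 month, with none called then. Of 43 measured genes, 42 had a higher value at 1 month than at 4 hr after HD, with a median of 0.47, and the sham median over that month was 0.45. Called between the HD times were Cd24a, a surface glycoprotein of luminal cells, and Esr1, the estrogen receptor. Against sham 21 of 43 were lower at 4 hr, where 3.11% of all genes were, with a median of −0.94, and at 1 month 42 of 43 lay below sham with a median of −1.02 and 0 called. The list mean was −1.72 to −0.55 at 4 hr and −0.79 to −0.11 at 1 month after HD, and −0.34 to 0.03 and 0.36 to 0.62 in sham, so HD and sham did not overlap at either time. The 4 hr count was 7 without sham 4 hr replicate 1, 10 without sham 4 hr replicate 3, 12 and 9 without HD 4 hr replicates 2 and 4, and 0 with plate column as a covariate, with medians from −0.96 to −0.73. Without HD 1 month replicate 3, the array with the highest luminal mean of its group, 9 of the 43 were called lower at 1 month with a median of −1.15. Leaving out the highest array lowers the mean of that group. In that setting 67 of all 11807 genes were called lower by any probe set. With any other HD 1 month array or any sham 1 month array left out, 0 of the 43 were called.

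Krt8 and Krt19, intermediate filaments of luminal cells, show it array by array. Krt8 read 9.87, 9.10, 9.35 and 8.35 at 4 hr and 9.95, 9.75, 10.92 and 10.44 at 1 month after HD, and 11.34, 10.87 and 11.11 at 4 hr and 11.34, 12.05 and 11.32 at 1 month in sham. Every HD array was below every sham array of its time, and the HD arrays of the 2 times overlapped. The difference from sham was −1.94 at 4 hr (limma adjusted p = 0.00332) and −1.31 at 1 month (95% interval −1.98 to −0.64, limma adjusted p = 0.127). Krt19 differed from sham by −1.90 and −1.26, Krt18 by −1.41 and −1.23. Krt18 had the adjusted p nearest to the threshold of these keratins at 1 month (limma adjusted p = 0.0943).

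Cd24a rose by 1.44 between the HD times at its probe set of smallest p, from 8.92, 8.14, 8.72 and 8.02 to 9.83, 9.41, 10.54 and 9.79. Sham arrays read 9.93, 10.06 and 9.87 at 4 hr and 10.87, 10.76 and 10.54 at 1 month, a change of 0.77. The HD change of Cd24a minus its sham change was 0.67 (limma adjusted p = 0.571) and was not called. The HD arrays of the 2 times did not overlap, and all but 1 HD array at 1 month lay below the lowest sham array of that time, that 1 being HD 1 month replicate 3. Esr1 rose by 0.84 (limma adjusted p = 0.0492), with a sham change of 0.01, and lost the call in 12 of 17 alternatives. The keratin of the basal layer, Krt14, differed from sham by −0.61 at 1 month (95% interval −1.21 to −0.00, not called), and 2 of 18 myoepithelial genes were lower at 4 hr and 0 at 1 month. Of 20 milk and alveolar genes, 2 were lower at 4 hr and 0 at 1 month, counts to be read against the 3.11% of all genes.

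Counted over all genes, more genes differed from sham at 4 hr than at 1 month. Against sham, 811 genes (6.87%) were called at 4 hr, 384 higher (3.25%) and 427 lower (3.62%), and 4 (0.0339%) at 1 month, 1 higher (0.00847%) and 3 lower (0.0254%), with 3100 and 1689 at an unadjusted p under 0.05. The comparisons at 4 hr and 1 month share no array, so the 4 hr genes can be followed. The 384 higher genes had a median difference of 0.53 at 4 hr and 0.16 at 1 month. At 1 month 326 of them, or 84.9%, were still above sham, where 56.1% of all genes were, and for 292 the difference was under 50% of that at 4 hr (76.0%, against 39.7% of all genes). The 427 lower genes went from −0.67 to −0.21, with 360 still below sham and 264 (61.8%) under 50% of the 4 hr difference. Across the 811 genes, which are not independent replicates, the differences at the 2 times had a Pearson r of 0.719, and across all genes 0.371. Because these genes were chosen for their 4 hr values, the sizes at 4 hr are a description. At an unadjusted p under 0.05 in the 4 hr direction were 93 of the 384 and 158 of the 427 at 1 month, with 0 and 8 in the opposite direction. Of all 11807 genes, 1062 were at that p in the direction of their 4 hr value and 230 in the opposite one. The 4 hr count was 282 and 317 without HD 4 hr replicates 3 and 4, 304 and 303 without sham 4 hr replicates 1 and 2, and 18, all higher, with plate column as a covariate.

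**Figure D4:**
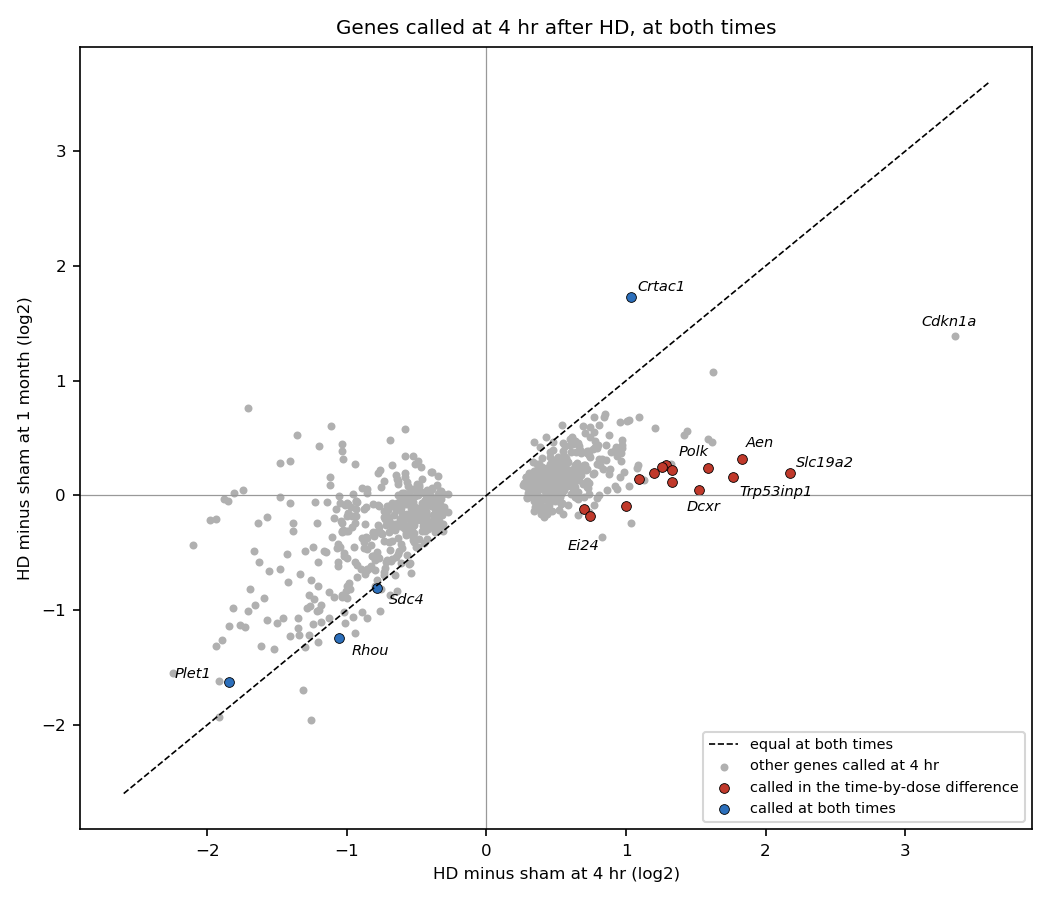
HD minus sham (log2) at 1 month against that at 4 hr for the 811 genes called at 4 hr, 1 point per gene, with the line of equal differences. Red points are the 14 genes of the test of return, between −0.18 and 0.31 at 1 month, and blue points are the 4 genes called at both times, which lie near or beyond the line.

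Called at both times and in the same direction were 4 genes, with none called in opposite directions and none called at 1 month together with the test of return. Crtac1, a secreted protein of cartilage matrix, read 5.71, 5.22, 5.46 and 5.71 at 4 hr and 5.94, 6.09, 5.87 and 6.68 at 1 month after HD. In sham it read 4.59, 4.58 and 4.28 at 4 hr and 4.34, 4.60 and 4.31 at 1 month. The HD arrays of both times were above all sham arrays, and those at 1 month above those at 4 hr. The difference from sham was 1.04 at 4 hr and 1.73 at 1 month (95% interval 1.38 to 2.08, limma adjusted p = 0.000121), and it kept the 1 month call in 15 of 16 alternatives, the exception being plate column as a covariate.

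The other 3 genes were lower at both times. Sdc4, a heparan sulfate proteoglycan of the cell surface, read 7.59, 7.40, 7.42 and 7.49 at 4 hr and 7.48, 7.24, 7.60 and 7.27 at 1 month after HD, with sham arrays between 8.06 and 8.52. All 8 HD arrays were below all 6 sham arrays, with differences of −0.79 and −0.80. Plet1, a surface protein of epithelial progenitors, differed by −1.85 and −1.63, and Rhou, a small GTPase, by −1.06 and −1.25. At 1 month the 3 each had a limma adjusted p of 0.0465 and were called in 5 of 16, 6 of 17 and 6 of 16 alternatives. The 1 month count was 94, with 27 higher and 67 lower, without HD 1 month replicate 3. It was 1 without any other HD 1 month array or any sham 1 month array. The count of genes called at both times was then 58 without HD 1 month replicate 3 and 1 without each of those others. It was 11 and 8 without HD 4 hr replicates 1 and 4, 2 without sham 4 hr replicate 1, and 1 without HD 4 hr replicate 2 or 3 or sham 4 hr replicate 2.

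No member of the mitosis, MCM and DNA synthesis lists was called between the HD times at its brightest probe set, other than Mcmbp. Mcmbp, a partner of the MCM helicase, rose by 0.55. The cell cycle and spindle genes named further above, among them Cdkn1a, Gtse1 and Psrc1, fell and were called. The 52 mitosis genes had a median of 0.26 and the 19 MCM and licensing genes 0.35. In sham the medians over the same month were −0.54 and −0.47, with 51 of 52 and 18 of 19 genes lower at 1 month and 0 called. Against sham, the mitosis median after HD was −0.58 at 4 hr, with 2 of 52 called lower, a share near the 3.11% of all genes. The 2 were Foxm1, the factor of G2 and M genes, and Stmn1, which takes microtubules apart. At 1 month the mitosis median against sham was 0.22 with 0 called. With plate column as a covariate the 1 month median was −0.19. Mki67, the proliferation marker Ki-67, spanned 5.35 to 6.62 at 4 hr and 6.40 to 7.99 at 1 month after HD, and 6.82 to 8.44 and 5.37 to 7.38 in sham. Its groups overlapped at 1 month and its change between the HD times, 1.32, was not called (limma adjusted p = 0.222). Of 32 DNA synthesis genes 0 were called between the HD times, and the ligase Lig1 was lower than sham at 4 hr (−1.03).

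**Figure D5:**
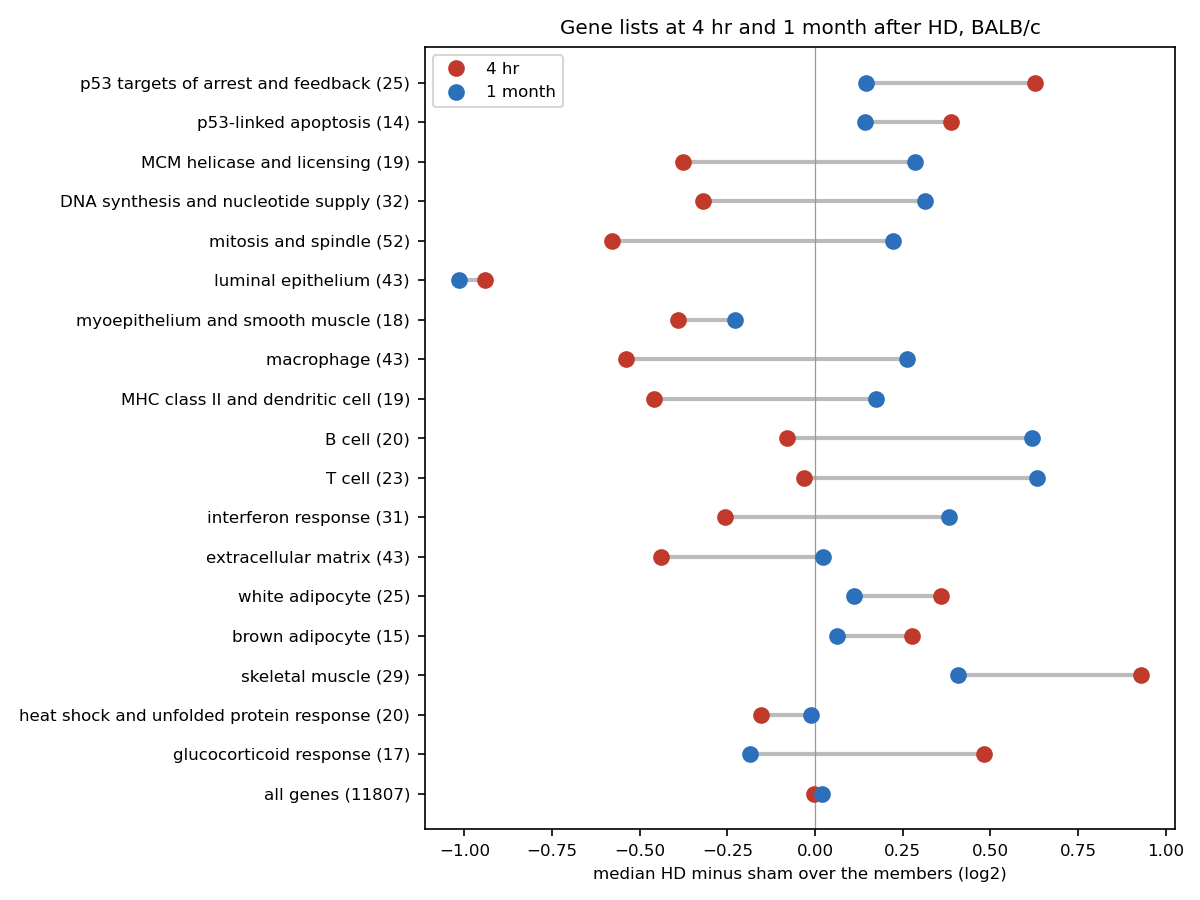
Median HD minus sham (log2) of the gene lists at 4 hr and at 1 month, in BALB/c MG. The p53 arrest list goes from 0.63 to 0.14, the class II list from −0.46 to 0.17, and the luminal list stays at −0.94 and −1.02. The class II list mean was 1.36 above the median array on HD 1 month replicate 1, the lymphoid array. On the other HD 1 month arrays it was −0.16 to 0.13. Points are medians over the number of genes in brackets, and those of B and T cell genes at 1 month (0.62 and 0.63) were −0.01 and −0.09 without the muscle and lymphoid arrays.

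Some extracellular matrix and signalling genes were lower than sham at 4 hr and none of these was called at 1 month. At 4 hr 3.11% of all genes were lower and 2.79% higher, and with plate column as a covariate no gene was called lower. Of 43 matrix genes, 8 were lower than sham at 4 hr and 0 at 1 month, with medians of −0.44 and 0.02, and 0 changed between the HD times. Among the 8 were Mfap2 (−1.64), a microfibril protein, Fbn2 (−1.66), a fibrillin, Mmp14 (−1.35), a membrane collagenase, Col1a1 (−1.12), fibronectin Fn1 (−1.04) and elastin Eln (−0.99). At 1 month they stood at −0.24, −0.49, −0.68, 0.09, −0.32 and −0.16. Of 27 genes of the TGF-beta pathway, 4 were lower at 4 hr, among them the ligand Tgfb3 (−0.79 at 1 month, limma adjusted p = 0.0943). Of 29 Wnt ligands and modulators, 5 were lower and 1 higher at 4 hr, with Wnt5a at −1.17 and Wnt2 at −1.23, and 0 were called at 1 month.

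Among the other changes between the HD times, 3 brown adipocyte genes fell. Cox7a1, a subunit of cytochrome oxidase, fell by 1.41 and Cpt1b, which brings fatty acids into mitochondria, by 1.27. Elovl3, which lengthens fatty acids, fell by 1.30. Of 15 brown adipocyte genes these 3 fell and none rose, where 1.18% of all genes fell, and 2 (Cox7a1 and Cpt1b) had been higher than sham at 4 hr, where 2.79% of all genes were. In sham the same genes changed by −0.80, −0.95 and −1.22 over the month without a call, and the HD change minus the sham change was −0.62 for Cox7a1, −0.32 for Cpt1b and −0.09 for Elovl3, none of them called. Cox7a1 and Cpt1b were still called without the muscle and lymphoid arrays, where the list had 2 genes called. Cox7a1 read 7.94, 7.29, 7.91 and 7.99 at 4 hr and 5.34, 6.61, 6.55 and 6.97 at 1 month, with no overlap. Ucp1, the uncoupling protein of brown fat, changed by −2.64 after HD without a call (limma adjusted p = 0.0503) and the sham change was −2.51. Of 25 white adipocyte genes, 4 were higher than sham at 4 hr (Plin4, Lgals12, Mgll and Cebpa), where 2.79% of all genes were, and 0 were called at 1 month or between the HD times. The muscle list had a median change of −0.85 with 0 of 29 called, and 0.64 without the muscle and lymphoid arrays.

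Stress and hormone response genes moved between the HD times in both directions. Of 20 genes of heat shock and the unfolded protein response, 5 rose and none fell, where 1.1% of all genes rose: the chaperones Hsph1 (0.70), Hspa5 (0.49) and Hspa8 (0.44), Herpud1 (0.46) of protein degradation in the endoplasmic reticulum, and the cochaperone Dnajb1 (0.33). In sham the same 5 changed by 0.30 to 0.47 without a call, and none of the 5 was called against sham at either time. Without the muscle and lymphoid arrays 1 of the 20 was called. Of 17 glucocorticoid response genes, 3 fell, where 1.18% of all genes did: Mt1 (−0.79), a metallothionein, Zbtb16 (−1.28), a zinc finger repressor, and Fkbp5 (−1.14), a chaperone of the glucocorticoid receptor. Without both arrays 0 were called. Of 31 interferon genes, Irf1 (0.40) and Psmb8 (0.70) rose, all 31 had a positive change with a median of 0.53, and 0 were called without both arrays. The interferon list mean was −0.175 to 0.254 at 4 hr and −0.124 to 1.49 at 1 month after HD, so the times overlapped. In sham it was −0.415 to 0.941 at 4 hr and −0.434 to 0.77 at 1 month. Myc, the growth regulator, rose by 0.91, having been 0.96 below sham at 4 hr and 0.01 above it at 1 month.

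Of the single genes with the largest rises, Socs2, a feedback inhibitor of growth hormone and prolactin signalling, rose by 1.41, from 7.77, 7.59, 7.03 and 7.02 to 8.76, 8.40, 8.58 and 9.28. The HD times did not overlap. Sham read 7.11 to 7.83 at 4 hr and 8.07 to 9.24 at 1 month, and Socs2 was called against sham at neither time. Rsrp1, a protein with arginine and serine repeats, rose by 1.20 and Bcl6, a transcriptional repressor, by 1.18, neither of them called against sham at either time. Igf1, the growth factor, rose by 0.63 and its binding protein Igfbp5 by 0.86.

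In C57BL/6 MG the comparison of HD times called 225 genes (1.91%), 135 higher (1.14%) and 90 lower (0.762%). That fit used all 43 MG arrays, so its count is not set against the 355 of the BALB/c arrays alone. Over the same 43 arrays the BALB/c comparison called 739 genes, 397 higher and 342 lower. The difference of the HD time change between the strains called 1 gene, H2-Ea (0.00847%). C57BL/6 mice are known to carry a deletion that silences this gene, and its 8 HD arrays in that strain lay between 3.77 and 4.13 with a change of −0.06, against the rise of 2.12 in BALB/c. The difference was 2.18 (95% interval 1.56 to 2.81, limma adjusted p = 0.000718). That interval and p rest on a spread pooled with the dim C57BL/6 arrays, which varied less than the BALB/c ones. With the arrays compared alone the count was 0. Cdkn1a fell by 2.48 in C57BL/6, and its strain difference was −0.04 (95% interval −1.07 to 0.99).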

How the data were processed

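The authors processed the HT Mouse Genome 430A arrays with RMA and deposited log2 values per probe set, which were used as deposited. RMA and limma are named in the submitters' processing notes, and versions are not given in the sources used here. Of 22626 probe sets, 18003 have 1 gene symbol in the platform annotation (11807 genes), 287 several and 4336 none. Contrasts of group means were fitted with limma 3.58.1 (R 4.3.3) over the 20 BALB/c MG arrays (14 residual degrees of freedom), or all 43 MG arrays for the strain difference, with Benjamini-Hochberg adjustment over all probe sets. A gene was called at an adjusted p under 0.05 by any probe set; lists took each gene at its brightest probe set. Median standard errors were 0.12 between the HD times and 0.13 against sham, so 4 arrays per HD group and 3 per sham group limit the precision.

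Named genes were the 10 highest and 10 lowest changes between the HD times among genes without overlap that stayed called without the muscle and lymphoid arrays, genes of the test of return, list members of smallest p, genes called at both times, and a few of own choice. Of the last, Bax, Ccnb1 and H19 were not analysed here. Members and lists were chosen with earlier results of these data known. Alternatives are in the closing section. The fit was tested on simulated data. Promoter sequences are those of RefSeq (GRCm38.p6). Tables and plots were made in Python 3.11 with numpy 2.4.6, pandas 2.3.3 and, for plots, matplotlib 3.10.9.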

Additional observations from a re-analysis of the deposited data

Results flagged for a closer look

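Single arrays stood apart from the other 3 of their group in 16 of 186 groups of 4 arrays tested for a gene or list mean, or 8.60%, and chance flags about 1 in 20. HD 1 month replicate 1 accounted for the lymphoid values: list means of 2.68 for B cell, 1.51 for plasma cell, 2.44 for T cell, 0.867 for NK cell and 2.95 for lymph node stroma genes above the median array, and log2 values of 7.77 for Cd3e, 7.96 for Cd79a and 9.44 for H2-DMb2. It was also low for Bcl6 (6.32). The muscle list stood apart in HD 4 hr replicate 1 (5.62) and HD 1 month replicate 3 (2.09), and the epidermis list in HD 4 hr replicate 1 (0.553). The other values were Cox7a1 in HD 4 hr replicate 2 (7.29), Mdm2 in HD 4 hr replicate 3 (9.64), the T cell list in HD 4 hr replicate 3 (−0.0291) and the interferon list in HD 4 hr replicate 4 (0.254).

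The change over time after HD differed from that in sham, by limma, for 14 genes: Slc19a2 (−1.98), Trp53inp1 (−1.61), Aen (−1.52), Dcxr (−1.48), Polk (−1.35), Dglucy (−1.21), Gtse1 (−1.11), Pvt1 (−1.09), Ccng1 (−1.03), Pqlc3 (−1.01), Zmat3 (−1.01), Mdm2 (−0.956), Thyn1 (−0.915) and Ei24 (−0.818). Between BALB/c and C57BL/6, it differed for H2-Ea (2.18).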

How the results depend on the processing

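No named gene changed sign where it had been called. The 5 BALB/c arrays left out for other tissue were HD 4 hr replicate 1, HD 1 month replicate 1, sham 4 hr replicate 1 and LD 4 hr replicates 1 and 2. HD 1 month replicate 3, with the muscle list at 2.09, was kept in that setting. For genes changed between the HD times (355), the count was 739 over all 43 MG arrays, 220 with array weights, 552 among probe sets with a mean above 6, 42 with the arrays compared alone, 66 with plate column as a covariate, 83 without 5 arrays with other tissue, 179 without the muscle and lymphoid arrays, 169 with a fold minimum of 0.58, and 123 to 726 with 1 array left out. In sham (0) it was 82 at an unadjusted p under 0.01 with that minimum and 0 to 1 with 1 array left out. In the test of return (14) it was, for the same settings, 27 (all arrays), 7 (arrays compared), 2 (plate column), 3 (without 5), 8 (without both), 221 (unadjusted) and 7 to 15 (1 array out). For the comparisons with sham at 4 hr and at 1 month, arrays compared means the BALB/c HD and sham arrays of both times. At 4 hr (811) the count was 333 (arrays compared), 18 (plate column), 272 (without 5), 416 (fold minimum) and 282 to 840. At 1 month (4) it was 15 (all arrays), 1 (brightest probe set), 14 (above 6), 1 (arrays compared), 0 (plate column), 15 (quantile again), 1 (without 5), 2 (without both), 234 (unadjusted) and 1 to 94. The strain difference (1) was 0 (arrays compared), 75 (unadjusted) and 1 to 2. Genes called at 4 hr and in the test of return but not at 1 month (14) were 26 (all arrays), 7 (arrays compared), 2 (plate column), 3 (without 5), 8 (without both), 118 (unadjusted) and 7 to 15. Genes called at both times (4) were 7 (all arrays), 1 (brightest), 12 (above 6), 1 (arrays compared), 0 (plate column), 8 (quantile again), 1 (without 5), 2 (without both), 108 (unadjusted) and 1 to 58. Genes called at 1 month and in the test of return alone (0) were 8 (unadjusted), and none turned sign between the times in any setting. The cause was not tested, beyond fewer arrays or probe sets in the settings that leave some out.

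Arrays of the same replicate number did not deviate together, with correlations of −0.0319, 0.088, −0.215 and −0.0155. With a replicate block the counts were 426 between the HD times, 14 in the test of return, 432 at 4 hr, 3 at 1 month and 0 in sham.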

Other observations

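In lists not described above, few genes were called between the HD times in BALB/c MG, where 1.1% of all genes rose and 1.18% fell at their brightest probe set. Of 48 DNA repair genes, Ercc5, a nuclease of nucleotide excision repair, fell by 0.51, and against sham 3 were higher and 2 lower at 4 hr, where 2.79% and 3.11% of all genes were, and 0 at 1 month. Of 17 cholesterol synthesis genes, Idi1, which makes an isoprenoid building block, fell by 0.99. Of 20 hypoxia genes, the glycolytic enzyme Aldoa fell by 0.53. Of 21 antioxidant genes, Gpx3, a secreted glutathione peroxidase, rose by 0.69. Of 21 senescence and secretory genes, Igfbp5 (0.86) and Hgf (0.38), a growth factor of epithelium, rose. Igf1 was the gene called among 13 growth control genes, and Myc among 25 immediate early genes. The lists of plasma cell, NK cell, lymph node stroma, neutrophil, endothelium, epidermis, circadian clock, red blood cell and Schwann cell genes had 0 called between the HD times.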
